A study of Caenorhabditis elegans with 2 samples.

Results

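The genes described here are 10 genes of cell fusion and of the apical junction, the belt that joins epithelial cells in the worm. They were chosen by name and not by any measured value, though with earlier results of these data known. They are 10 of the 19973 nuclear protein-coding genes of the annotation. They fall into 5 roles: the fusogens eff-1 and aff-1, the DLG-1/AJM-1 module (ajm-1 and dlg-1), the basolateral polarity gene let-413, the cadherin-catenin complex (hmr-1, hmp-1, hmp-2 and jac-1) and the spectraplakin gene vab-10. The study mapped DNA bound by CEH-16 with chromatin immunoprecipitation followed by sequencing (ChIP-seq). The worms were L3 larvae of Caenorhabditis elegans strain OP82, genotype unc-119(tm4063) III; wgIs82, a stable transgenic line in which CEH-16 carries a GFP-FLAG tag at its C terminus. Whole animals of pooled sex and unknown age were used, so the cells that contributed a given peak were not resolved. All samples belong to 1 group with 2 biological replicates, and there is no untagged or mutant group, so no test of a difference could be made and every value below is a description.

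Epithelial cells of the worm are held together by an apical junction with distinct layers. In the upper layer the cadherin HMR-1 binds the β-catenin HMP-2 and the p120-catenin JAC-1, and the α-catenin HMP-1 links this complex to actin. Below it lies the module of DLG-1, the Discs large homologue, and the coiled-coil protein AJM-1, and the Scribble homologue LET-413 is needed to gather the junction into a belt. VAB-10 is a spectraplakin that ties epidermal attachments to the cytoskeleton. EFF-1 and AFF-1 are membrane proteins that fuse cells, including epidermal cells that join the surrounding syncytium. CEH-16 is the worm engrailed, a homeodomain protein of the lateral seam cells, and in the embryo it is known for keeping eff-1 off in those cells so that they do not fuse.

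A gene's window was its body plus 5000 bp upstream of its outermost annotated start, read along its strand. A peak belonged to a gene where its summit lay in that window. Each peak carries a signal, the authors' own value on an unstated scale, so signals were compared within a list only. The pooled list had 30000 peaks (29975 nuclear) with a lowest signal of 11.5 and a nuclear median of 15.1. The list thresholded by the irreproducible discovery rate (IDR) had 214 peaks, 189 of them nuclear, down to a signal of 43.6. By its deposited name, the pooled list holds both peaks and background, as input for IDR. Its entries are called peaks below, but those outside the thresholded list may be background. The replicate 1 list had 19150 peaks and the replicate 2 list 30000, with nuclear medians of 7.93 and 10.8. The lists hold no read counts, so depth was unknown. The window of ceh-16 itself held 0 peaks in the pooled list and 0 in each replicate list.

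Sequences at 9 summits are shown so that the words counted below and the tRNA genes beside ajm-1 can be read in place. No sequence of hmr-1, hmp-2 or vab-10 is shown, and so the hmp-2 summit with TAATTA described below is not among them. The first pair is from eff-1, whose summits held neither TAATTA nor TAATTG, the homeodomain core words searched. The next 5 are summits that held TAATTA. The last pair are the ajm-1 summits that lay beside tRNA genes. They are RefSeq genome sequence on build ce11, 5′ to 3′ on the strand given. In the first 7, capitals mark TAAT or its complement ATTA, and overlapping copies run together. In the last 2, capitals mark the tRNA gene.
eff-1, upstream, chrII:8343596-8343696, plus strand: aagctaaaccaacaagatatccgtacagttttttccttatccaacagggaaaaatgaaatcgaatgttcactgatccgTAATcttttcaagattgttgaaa
eff-1, intron, chrII:8349115-8349215, plus strand: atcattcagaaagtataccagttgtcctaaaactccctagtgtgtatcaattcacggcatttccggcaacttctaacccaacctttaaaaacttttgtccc
aff-1, intron, chrII:6861102-6861202, minus strand: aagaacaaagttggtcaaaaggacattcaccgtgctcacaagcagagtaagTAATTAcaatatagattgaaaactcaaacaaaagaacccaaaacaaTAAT
aff-1, intron near the start, chrII:6863484-6863584, minus strand: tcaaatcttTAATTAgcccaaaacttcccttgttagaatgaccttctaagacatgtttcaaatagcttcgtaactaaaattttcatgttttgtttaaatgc
ajm-1, upstream, chrX:9082186-9082286, plus strand: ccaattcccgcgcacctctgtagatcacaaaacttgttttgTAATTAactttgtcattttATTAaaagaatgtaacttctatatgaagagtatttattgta
let-413, intron, chrV:7973685-7973785, minus strand: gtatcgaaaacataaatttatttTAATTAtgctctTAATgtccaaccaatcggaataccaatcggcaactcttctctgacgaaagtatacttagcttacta
jac-1, intron, chrIV:16006873-16006973, minus strand: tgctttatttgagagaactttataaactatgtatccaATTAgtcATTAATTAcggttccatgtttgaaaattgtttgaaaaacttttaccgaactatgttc
ajm-1, upstream beside tRNA gene F47E1.T1, chrX:9078098-9078338, minus strand: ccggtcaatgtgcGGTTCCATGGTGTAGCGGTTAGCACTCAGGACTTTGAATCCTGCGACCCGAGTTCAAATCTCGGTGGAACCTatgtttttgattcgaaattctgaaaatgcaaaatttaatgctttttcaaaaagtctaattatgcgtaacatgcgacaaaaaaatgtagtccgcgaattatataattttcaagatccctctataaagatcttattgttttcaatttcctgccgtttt
ajm-1, intron beside tRNA gene H08J11.T3, chrX:9091389-9091629, minus strand: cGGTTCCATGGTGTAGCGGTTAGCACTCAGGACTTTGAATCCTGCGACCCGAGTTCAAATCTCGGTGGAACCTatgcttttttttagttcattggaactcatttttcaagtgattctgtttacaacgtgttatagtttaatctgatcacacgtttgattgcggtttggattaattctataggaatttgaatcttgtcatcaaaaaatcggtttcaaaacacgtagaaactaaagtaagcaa

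Of the 10 genes, 2 had a peak of the thresholded list in their window, ajm-1 and vab-10, against 1.8% of all nuclear protein-coding genes (360 genes). All 10 had at least 1 pooled peak, against 86.7% of all genes, so the presence of a pooled peak says little. Likewise all 10 had a replicate 1 peak, against 74.9% of all genes, and all 10 had a replicate 2 peak, against 87.1%. A pooled peak with a summit within 200 bp in both replicate lists was present in 6 of the 10 genes, against 34.8% of all genes. The 6 were ajm-1, let-413, hmr-1, hmp-2, jac-1 and vab-10. The 4 without one were both fusogen genes, dlg-1 and hmp-1. A peak among the 1000 strongest of the pooled list, which reach down to a signal of 29.2, was present in 4 of the 10 (ajm-1, vab-10, hmr-1 and hmp-2), against 7.7% of all genes. The plot of pooled signal by gene shows this spread.

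**Figure D1:**
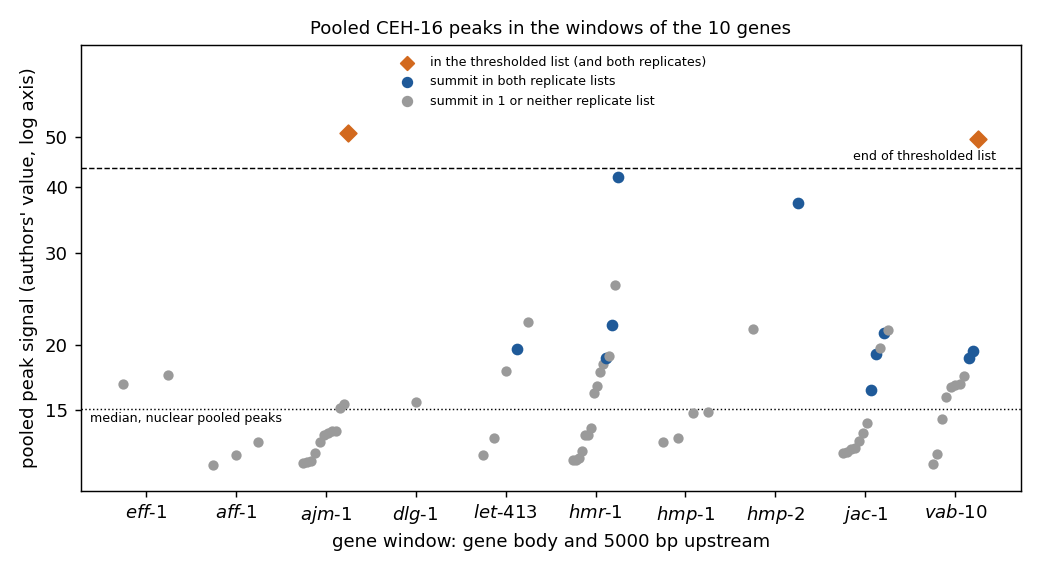
Signal of the 68 pooled peaks (log axis, authors' value) in the windows of the 10 genes, with 1 point per peak; points are spread sideways in order of signal. The ajm-1 and vab-10 peaks at 50.9 and 49.4 sit above the dashed line at 43.6 where the thresholded list ends, the hmr-1 and hmp-2 peaks at 41.9 and 37.3 sit below it, and most other peaks lie near the dotted nuclear median of 15.1.

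Window length went with these counts. The windows had a median length of 10769 bp for the 10 genes and 7027 bp for all genes. Windows of 20000 bp or more were found in 4 of the 10 genes (ajm-1, hmr-1, jac-1 and vab-10) and in 404 of all genes, a split made after the values were seen. All 4 long genes had a pooled peak in both replicates, against 73.5% of all long-window genes, and 2 of the 4 had a thresholded peak, against 3.71%. A peak among the 1000 strongest was present in 3 of these 4 (ajm-1, hmr-1 and vab-10), against 19.1% of long-window genes. Of the 6 genes with shorter windows, 2 (let-413 and hmp-2) had a pooled peak in both replicates, against 34.0% of all genes with shorter windows, and 0 had a thresholded peak. Per 10 kb of window there were 2.69 pooled peaks in the 10 genes and 3.03 in all genes, so these genes did not hold more peaks for their length. The density was 2.60 per 10 kb in the 4 long genes and 2.98 in the 6 shorter ones, against 2.92 and 3.04 over all genes of those lengths.

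The strongest pooled peak of each gene had a median signal of 21.8 over the 10 genes, against 18.1 over the 17315 genes with a pooled peak and 22.3 over long-window genes. It was above the median of all genes in 6 of the 10 and below it in 4. Ranked by strongest peak among the 17315 genes, ajm-1 stood at 220, vab-10 at 245, hmr-1 at 402 and hmp-2 at 612. Then followed let-413 at 4493 and jac-1 at 5153. The fusogen gene eff-1 stood at 9484, dlg-1 at 12337, hmp-1 at 13319 and aff-1 at 15806. The genes at the top of this order thus come from the cadherin complex, the DLG-1/AJM-1 module and the spectraplakin, and each of the first 2 groups also has a gene in the lower part.

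**Figure D2:**
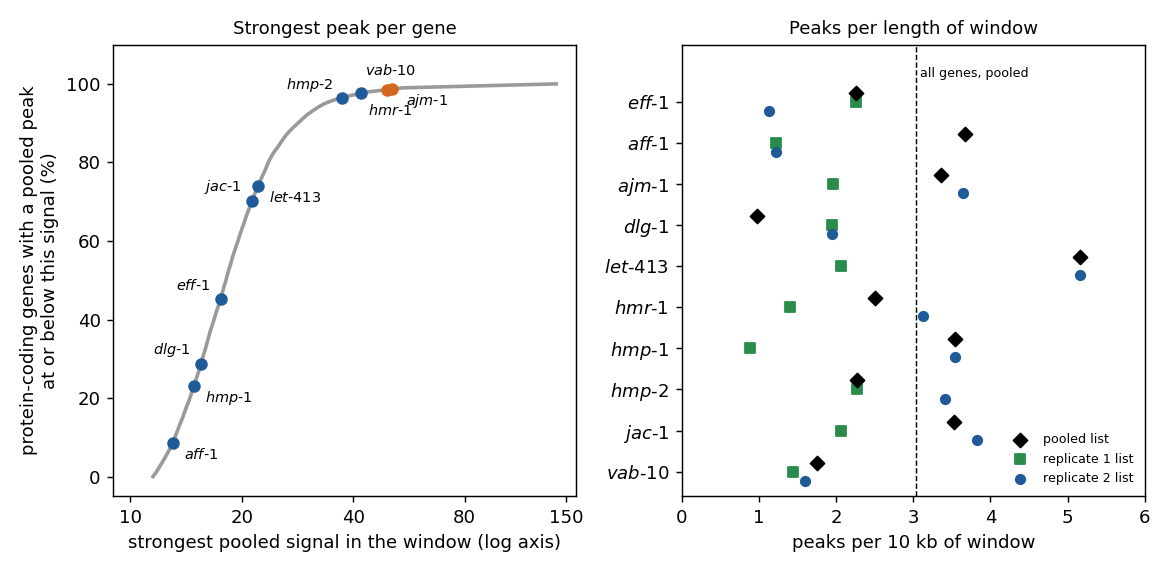
Left, the strongest pooled signal in each of the 10 windows (log axis) on the cumulative curve of all 17315 protein-coding genes with a pooled peak, orange for the 2 genes with a thresholded peak. Right, peaks per 10 kb of window in each list, with a dashed line at the 3.03 of all genes in the pooled list; the densities range widely, and let-413 is highest at 5.16 in the pooled list while dlg-1 is lowest at 0.976.

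The windows of the 10 genes held 68 pooled peaks in all, with a median signal of 14.8 and a range of 11.8 to 50.9, and 33 of them were in the stronger 15000 of the list. A summit in both replicate lists was found for 12 of the 68, or 17.6% (exact Clopper-Pearson 95% interval 9.47 to 28.8%, counting of peaks only), against 19.3% of nuclear pooled peaks. The interval thus contained the share over the genome. It treats peaks as independent, although 51 of the 68 lay in the 4 long genes. A summit in replicate 2 only was found for 39 (57.4%, against 48.1% of nuclear pooled peaks), in replicate 1 only for 8 (11.8%, against 17.6%) and in neither for 9 (13.2%, against 14.99%). The replicate lists held further peaks in these windows with no pooled summit within 200 bp, 22 of 42 in replicate 1 and 22 of 72 in replicate 2, the strongest at 10.6 and 13.7. The plot of the 12 peaks in both replicates gives each list its own axis.

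**Figure D3:**
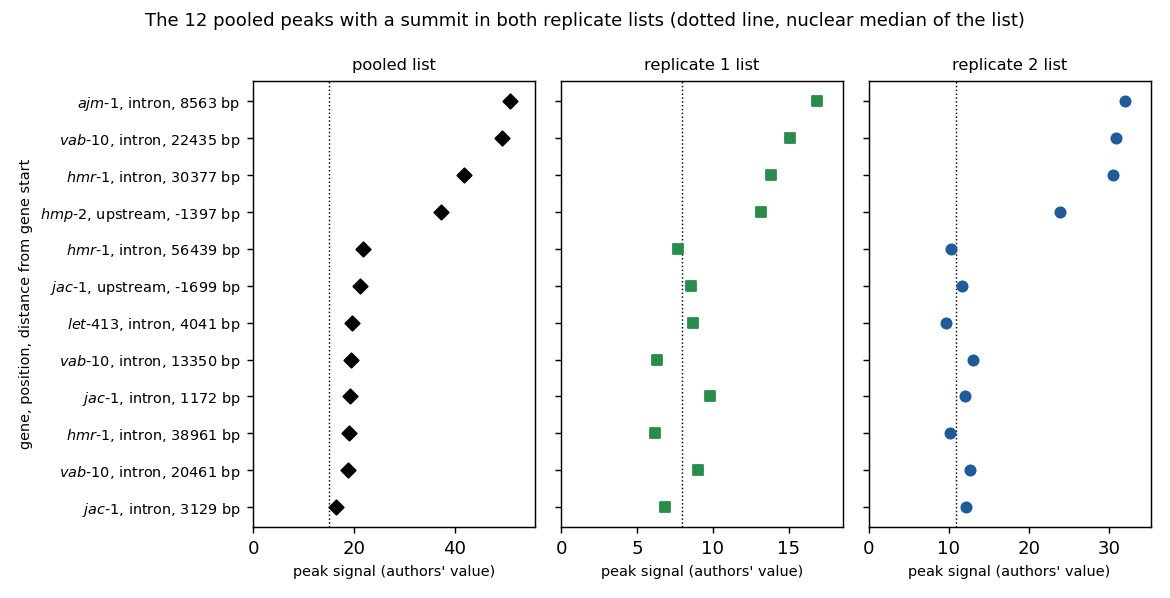
Signal in the pooled, replicate 1 and replicate 2 lists (authors' values, a separate linear axis for each list, dotted line at the list's nuclear median) of the 12 pooled peaks with a summit within 200 bp in both replicates, named by gene, position and distance from the gene start (below 0 is upstream). The 4 upper peaks, in ajm-1, vab-10, hmr-1 and hmp-2, had 13.2 to 16.9 in replicate 1 and 23.9 to 31.9 in replicate 2, and the other 8 had 6.17 to 9.79 in replicate 1 and 9.65 to 13.1 in replicate 2.

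The fusogen genes had weak peaks and none in both replicates. The gene eff-1 (chromosome II, 8346684 to 8350563, plus strand) makes the fusogen of most epidermal fusions and is the gene that CEH-16 is known to keep off in seam cells. Its upstream pooled peak, with its summit 3038 bp before the gene start, had a signal of 17.5 (rank 9050 of 30000) and a replicate 1 signal of 9.11 at a summit 109 bp away, with no replicate 2 summit. Its intron peak, 2481 bp past the start, had a pooled signal of 16.8 and a replicate 2 signal of 11.0, with no replicate 1 summit. Each eff-1 peak was therefore carried by a different replicate, and both signals were little above the nuclear median of 15.1. Replicate 1 had 1 further eff-1 peak, 1142 bp upstream at a signal of 7.17, which was in neither other list. In the eff-1 sequences shown above, the upstream summit held TAAT and the intron summit did not.

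The gene aff-1 (chromosome II, 6860582 to 6863752, minus strand) makes the other fusogen, which acts on the anchor cell and between seam cells late in larval life. Its 3 pooled peaks had signals of 13.0, 12.3 and 11.8, all under the nuclear median. The weakest was in the intron 218 bp past the start, the strongest 2600 bp past the start, and the third 1550 bp upstream. Only the upstream peak had a replicate summit, in replicate 2 at 8.28, near the lowest signal of that list (8.14). The single aff-1 peak of replicate 1, at 6.74, lay 4263 bp upstream and matched no pooled peak. Both intron summits held TAATTA, although neither had a summit in a replicate list.

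The DLG-1/AJM-1 module had 13 pooled peaks, 12 of them in ajm-1 and 1 in dlg-1. The gene ajm-1 (chromosome X, 9082946 to 9113619, plus strand) encodes a coiled-coil protein that marks this junction layer in the worm's epithelia. Its strongest peak, with its summit at 9091509 in an intron 8563 bp past the start, had a pooled signal of 50.9 (rank 141). The replicate signals there were 16.9 (rank 466 of 19150) in replicate 1 and 31.9 (rank 153 of 30000) in replicate 2, with the replicate 1 summit 1 bp away. This was the highest of the 68 peaks in the pooled list and in both replicate lists. The summit lay 776 bp upstream of the nearest annotated ajm-1 transcript start, within the noncoding RNA gene H08J11.5. The other 11 ajm-1 peaks had pooled signals of 11.9 to 15.4 and none had summits in both replicates.

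The strong ajm-1 summit was 48 bp from the tRNA-Gln gene H08J11.T3, whose sequence is shown above, at 9091557 to 9091628 on the minus strand. Replicate 1 placed its summit 47 bp from that gene and replicate 2 placed it 5 bp away. The intron held a cluster of 5 tRNA-Gln genes (H08J11.T1 to H08J11.T5), and H08J11.T2 lay 128 bp from the summit. A sixth, F47E1.T1, lay in the upstream part of the window, 36 bp from a weak pooled summit with a signal of 13.6 and a replicate 2 signal of 9.29. These 2 were the only peaks among the 68 with a tRNA gene within 200 bp (2.94%, exact Clopper-Pearson 95% interval 0.358 to 10.2%), against 1.01% of nuclear pooled peaks, and the count without ajm-1 was 0. In vab-10, the tRNA-Ser gene T02G6.T1 lay 91 bp from a replicate 2 summit with a signal of 10.04, but its nearest pooled summit was 2833 bp away. Of the 6 tRNA genes in the ajm-1 window, 4 shared the 72-base sequence in capitals above, which occurs in 15 annotated tRNA genes. Of those 15, 6 had a pooled summit within 200 bp and 1 a thresholded summit. How reads in repeated sequence were placed is not given in the sources used here, and the part of the tRNA genes in the ajm-1 signal was not tested.

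The gene dlg-1 (chromosome X, 5479700 to 5484941, plus strand) encodes the Discs large scaffold that binds AJM-1. It had the fewest pooled peaks of the 10, 1 in a window of 10242 bp, or 0.976 per 10 kb. That peak, 1153 bp upstream, had a pooled signal of 15.5 and a replicate 2 signal of 11.2 at the same base, with no replicate 1 summit. Replicate 1 instead had summits 1795 and 3776 bp upstream, at 9.04 and 6.83, and replicate 2 had another 4929 bp upstream at 12.7, so the replicates shared no summit in this window.

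**Figure D4:**
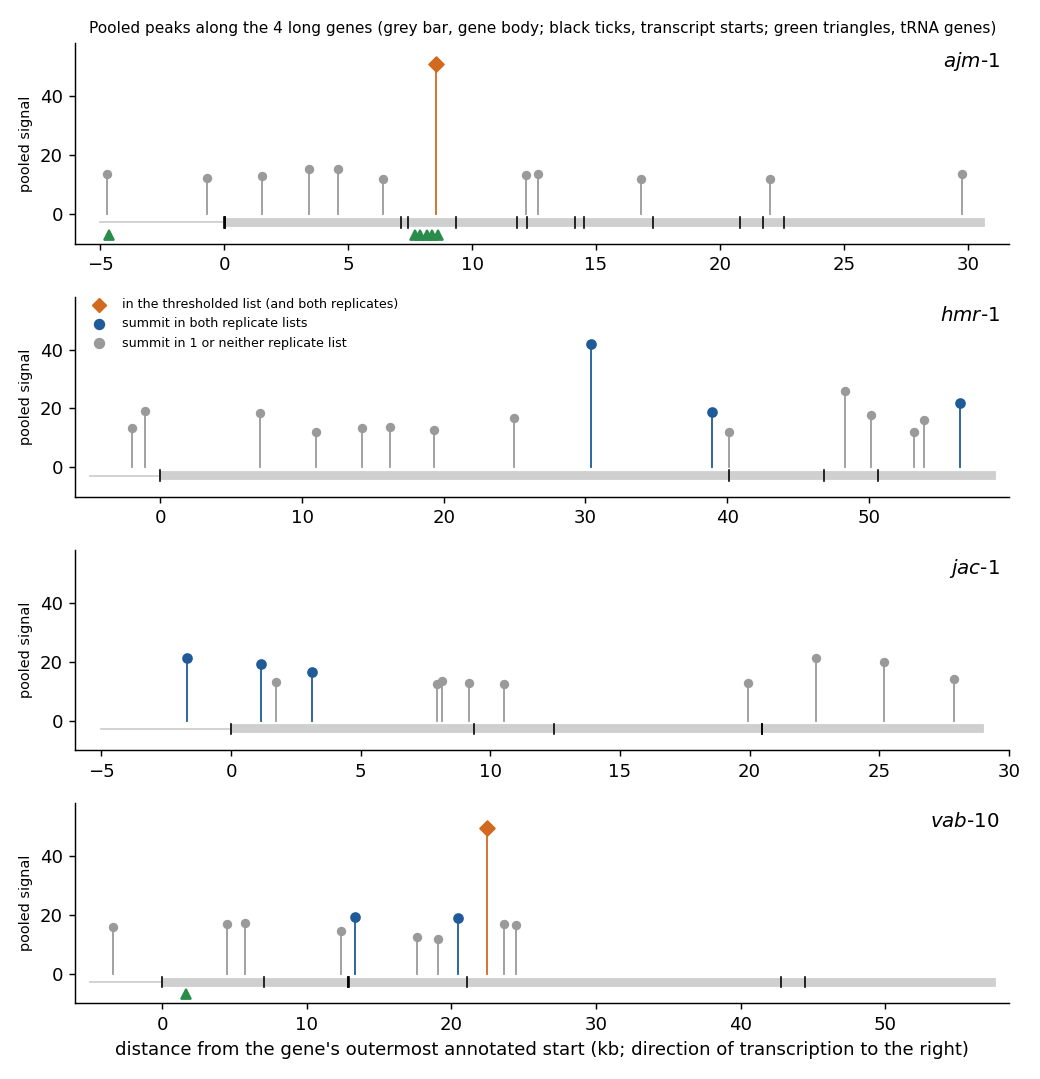
Pooled peaks along ajm-1, hmr-1, jac-1 and vab-10, with distance from the outermost annotated start in kb on the horizontal axis and pooled signal on the vertical axis. Grey bars are gene bodies, black ticks annotated transcript starts and green triangles tRNA genes; the strongest ajm-1, hmr-1 and vab-10 peaks lie well inside the gene, at 8563, 30377 and 22435 bp, and the ajm-1 peak stands over the cluster of 5 tRNA genes.

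The gene let-413 (chromosome V, 7973078 to 7977776, minus strand) encodes the Scribble homologue of the basolateral membrane. Its window had the highest density of the 10, 5 pooled peaks or 5.16 per 10 kb. The peak found in both replicates was in an intron 4041 bp past the start, where the signal was 19.6 in the pooled list, 8.71 in the replicate 1 list and 9.65 in the replicate 2 list. Its sequence, shown above, held TAATTA. The strongest let-413 peak, at 22.2 (rank 3469), was 2884 bp upstream and had a replicate 2 signal of 17.9 but no replicate 1 summit. It and the other 3 upstream peaks, at 12.3 to 17.8, were nearer to the start of the neighbouring gene F26D11.1 than to that of let-413. The summit of the peak at 17.8 lay within F26D11.1. The upstream peak at 3091 bp, with a signal of 13.3, overlapped the strongest peak and had no summit in either replicate. The density counts these overlapping peaks separately.

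The cadherin-catenin genes had 34 pooled peaks, 7 of them in both replicates: 3 in hmr-1, 3 in jac-1, 1 in hmp-2 and 0 in hmp-1. The cadherin gene hmr-1 (chromosome I, 11075755 to 11134667, minus strand) is the longest of the 10, with a short epithelial form and a long neuronal form made from separate starts. It had 16 pooled peaks in a window of 63913 bp, or 2.50 per 10 kb. The strongest, with its summit at 11104290, reached 41.9 in the pooled list (rank 248), 13.8 in the replicate 1 list (rank 1122) and 30.4 in the replicate 2 list (rank 183). Its replicate 1 summit was 120 bp from the pooled summit and its replicate 2 summit 86 bp from it on the other side. The peak fell just short of the thresholded list, whose lowest signal was 43.6. It was the nearest of the 68 peaks below that limit as vab-10 at 49.4 was the nearest above it. Its intron position was 30377 bp past the outermost start and 9764 bp upstream of the next annotated hmr-1 start, so no annotated start of the gene was close. Counting only the outermost start of each gene, the nearest coding start was that of another gene, Y52B11B.1.

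A pair of weaker hmr-1 peaks was also found in both replicates. Their summits were in introns 38961 and 56439 bp past the start, with pooled signals of 18.9 and 21.8. The replicate 1 signals were 6.17 and 7.72 and the replicate 2 signals 10.1 and 10.2, all below the nuclear medians of the replicate lists, 7.93 and 10.8. The peak ranked next after the strongest, at 25.97 (rank 1661) in an intron 48288 bp past the start, had a replicate 2 signal of 18.1 and no replicate 1 summit. Annotated internal hmr-1 starts lay 1180 and 5825 bp from the pair, in the order given, and 1453 bp from this peak. Counting only the outermost start of each gene, the nearest coding start to all of them was that of another gene, Y52B11A.11.

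The β-catenin gene hmp-2 (chromosome I, 14738882 to 14742671, plus strand) had 2 pooled peaks. The peak 1397 bp upstream reached 37.3 in the pooled list (rank 379), 13.2 in the replicate 1 list (rank 1387) and 23.9 in the replicate 2 list (rank 474), and its summit held TAATTA within 50 bp. It was the strongest of the 18 upstream peaks of the 10 genes, but the coding start nearest to it was that of another gene, K05C4.7. The other peak, in an intron 294 bp past the hmp-2 start, reached 21.5 in the pooled list and 13.7 in the replicate 1 list (rank 1194), and replicate 2 had no summit within 200 bp. The nearest one there was 578 bp past the start at 11.1.

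The α-catenin gene hmp-1 (chromosome V, 11845871 to 11852166, plus strand) had 4 pooled peaks, all upstream, with signals of 13.0 to 14.9. All 4 had replicate 2 summits, at 9.06 to 13.1, and none had a replicate 1 summit. The summits of 3 of them lay within the neighbouring gene nphp-4, and the fourth, 968 bp upstream at 14.8, had hmp-1 as the nearest coding start. The single replicate 1 peak, in an intron 1330 bp past the start at 8.20, matched no pooled peak.

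The p120-catenin gene jac-1 (chromosome IV, 15997835 to 16026847, minus strand) had 12 pooled peaks. The 3 found in both replicates stood together around the outermost start: 1 was 1699 bp upstream, with a pooled signal of 21.1, and the others were in introns 1172 and 3129 bp past it, at 19.2 and 16.4. Their replicate 1 signals were 8.54, 9.79 and 6.81, and their replicate 2 signals 11.6, 11.9 and 12.1. The strongest jac-1 peak, at 21.3 (rank 4085), lay elsewhere, in an intron 22554 bp past the start, with a replicate 2 signal of 17.1 and no replicate 1 summit. That peak lay 2064 bp past an internal annotated jac-1 start. Counting only the outermost start of each gene, the coding start nearest to it was that of another gene, Y105C5B.20. The peaks at 16018713 and 16018913 shared a single replicate 2 summit, so their replicate matches are not independent. No jac-1 peak was among the 1000 strongest.

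The spectraplakin gene vab-10 (chromosome I, 11747424 to 11804991, minus strand) encodes large proteins that join epidermal attachment structures to intermediate filaments or to actin and microtubules. It had 11 pooled peaks in 62568 bp, or 1.76 per 10 kb, fewer for its length than all genes together. Its thresholded peak, with its summit at 11782556, reached 49.4 in the pooled list (rank 155), 15.1 in the replicate 1 list (rank 748) and 30.9 in the replicate 2 list (rank 173). It lay in an intron 22435 bp past the outermost start and 1383 bp past an internal start, held TAATTG within 50 bp, and was 20760 bp from the nearest tRNA gene. A pair of further intron peaks was found in both replicates, 20461 and 13350 bp past the start, with pooled signals of 18.9 and 19.4. The replicate 1 signals there were 9.04 and 6.29, and the replicate 2 signals 12.6 and 13.1. The remaining 8 vab-10 peaks had pooled signals of 11.8 to 17.4, and all but 1 of the 11 were inside the gene body.

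The lists used included no thresholded list of a single replicate, so the 214 strongest peaks of each replicate list were taken instead. Among the 214 strongest peaks of replicate 2 alone, 3 of the 10 genes were present, ajm-1, vab-10 and hmr-1, against 1.68% of all genes. Among the 214 strongest of replicate 1 alone there were 0 of the 10, against 1.74% of all genes. Replicate 1 nevertheless held a summit within 200 bp of the pooled summit of each of these 3 peaks, at 16.9, 15.1 and 13.8, above its nuclear median of 7.93.

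By position, 50 of the 68 summits were inside a gene body and 18 were upstream. Introns held 44, which is 64.7% of the peaks over 55.2% of the window bases, or 3.15 per 10 kb, against 3.10 per 10 kb for introns of all genes. Coding sequence held 6, or 1.07 per 10 kb, against 2.06 for all genes. Upstream sequence had 3.6 per 10 kb, against 3.21 for all genes. No summit fell in a UTR, which made up little of the windows. Of the 12 peaks in both replicates, 10 were in introns and 2 upstream. An annotated transcript start of the same gene lay within 1000 bp of 17 of the 68 summits and within 500 bp of 10. Counting only the outermost start of each gene, the nearest coding start was that of another gene for 31 of the 68. Assignment of those peaks by outermost start would thus differ from assignment by window. Some of them lay near an internal start of their own gene, such as the hmr-1 summit at 11094553, 27 bp upstream of an annotated hmr-1 start. The edge of the window also matters to jac-1: its outermost peak inside was 1699 bp upstream at 21.1, and the first outside was 5778 bp upstream at 24.1, stronger than any peak inside. For ajm-1 the outermost inside was at 4728 bp (13.6) and the first outside at 6051 bp (13.3). For hmp-1 they were at 4755 bp (14.9) and 7166 bp (15.1).

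The letters around the summits were searched on both strands within 50 bp for TAATTA and TAATTG, the cores that engrailed-class homeodomains are known to bind, for TAAT, which both of them contain, and for GAGAGA and CGCGCA, words picked from earlier results of these data. TAATTA was found at 7 of the 68 summits (10.3%, exact 95% interval 4.24 to 20.1%), against 5.24% of nuclear pooled summits. TAATTG was found at 8 (11.8%, interval 5.22 to 21.9%), against 9.17%. TAAT was found at 48 (70.6%, interval 58.3 to 81.0%), against 66.4%. GAGAGA was found at 5 (7.35%), against 6.73%, and CGCGCA at 1 (1.47%), against 1.75%. Each interval contains the share over all nuclear pooled summits. The 7 summits with TAATTA were 2 in aff-1, 2 in ajm-1 and 1 each in let-413, hmp-2 and jac-1, and only those of let-413 and hmp-2 were in both replicates. The ajm-1 summit upstream beside F47E1.T1 is 1 of the 7. Over 200 bp to each side of the summit, GC content was 34.5 ± 5.64% for the 68 peaks, against 34.7 ± 5.12% for nuclear pooled peaks (SD over peaks). A match to these letters is a description and not evidence of a bound site.

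Other genes of junctions, hemidesmosomes and fusion control were counted in the same way, in lists chosen with earlier results known. Among 15 further junction and polarity genes, 0 had a thresholded peak (1.8% of all genes), 2 had a peak among the 1000 strongest (7.7% of all genes), and 9 had a pooled peak in both replicates (34.8% of all genes). These 2 were srgp-1, which encodes an F-BAR protein of the junction, and pkc-3, the atypical protein kinase C of the PAR polarity complex. The srgp-1 peak was in an intron at 37.9 (20.1 in replicate 1 and 17.9 in replicate 2), and the pkc-3 peak was 74 bp upstream of the start at 30.4 (12.2 and 18.9 in replicates 1 and 2). Among 8 hemidesmosome genes, 0 had a thresholded peak, 0 had a peak among the 1000 strongest and 3 had a pooled peak in both replicates, which is near the 34.8% of all genes.

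Among 9 regulators of fusion, which include ceh-16, 1 had a thresholded peak (1.8% of all genes), 3 had a peak among the 1000 strongest (7.7%) and 6 had a pooled peak in both replicates (34.8%). These shares are over genes of any window length, and the share with a peak in both replicates was 73.5% among long-window genes. The GATA factor gene elt-1, which specifies epidermis, had the thresholded peak, in an intron 638 bp past the start at 54.9, with 18.99 in replicate 1 and 33.4 in replicate 2. The nuclear receptor gene nhr-25 had 2 peaks among the 1000 strongest, at 38.9 in an intron and at 31.0 upstream, both with summits in each replicate. The peak of egl-27, which encodes an MTA-type chromatin protein, was at 29.8 with a replicate 2 signal of 25.7 and no replicate 1 summit. Over the strongest peak of each gene, the median was 21.8 in the 10 genes, 19.98 in the junction and polarity list, 21.2 in the hemidesmosome list and 24.4 in the fusion regulators, against 18.1 in all genes.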

How the data were processed

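Peak lists of CEH-16 ChIP-seq from 2 biological replicates of L3 larvae (1 group, per the labels) were used as deposited. Per the deposited text, 1 list comes from each replicate and 1 from the pooled replicates, and a further list holds the pooled peaks that the authors passed by IDR. Per the labels, chromatin was sonicated and the build is ce11; the ce10 versions were not used. The text accompanying each sample names a control among the inputs to the lists; it was not used here. Neither an aligner nor a peak caller is named, so both are not given in the sources used here. Signal per peak is the authors' deposited value, on a scale they do not state, and served only to describe and rank peaks inside 1 list. Without read counts depth is unknown, and intervals cover counting of peaks only.

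Genes and tRNA genes came from Ensembl release 115 (WBcel235, which is ce11) and sequence from the matching RefSeq genome; coordinates are 1-based. Windows ran over the gene body and 5000 bp upstream. Summits were matched between lists within 200 bp, tRNA genes counted within 200 bp and words within 50 bp. The nearest coding start was taken over the outermost annotated start of each protein-coding gene, so internal starts were left out of it. All 10 genes are named, with each gene's strongest pooled peak, every thresholded peak and every peak in both replicates; related genes are named only with a thresholded peak or a peak of rank 1000 or better, and other genes are named where they lie at or next to a described peak. The genes, lists and words were chosen with earlier results of these data known. No test was made, since there is no contrast and 1 group. Window assignment and matching were tested on simulated data. Alternatives covered windows, matching distances, thresholds and each replicate alone. Python 3.11.15, numpy 2.4.6, pandas 2.3.3, scipy 1.17.1 and matplotlib 3.10.9 were used.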

Additional observations from a re-analysis of the deposited data

How the results depend on the processing

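The 7 summary values were recomputed under other windows, matching distances, thresholds and with each replicate left out, giving 40 alternative values: 29 stayed within a set tolerance and 11 did not. The tolerance was 1.5 times for counts and 0.838, the SD of the replicate densities, for peaks per 10 kb, while any shift of the median strongest signal counted as a move, since no replicate spread was computed for it. The count of peaks near a tRNA gene (2) was 1 with 2000 bp upstream, 1 with the gene body only, 4 with 5000 bp on both sides, 0 without ajm-1 (chosen after seeing the data), and 1 to 3 with either replicate left out. The median strongest signal (21.8) was 20.5 with 2000 bp upstream, 21.4 with the gene body only and 25.4 with both sides. The genes with a thresholded peak (2) were 4 when the 1000 strongest pooled peaks took the place of that list. They were 0 to 3 when the 214 strongest peaks of a single replicate took its place. Peaks per 10 kb (2.69) were 1.66 without replicate 2, on the shorter replicate 1 list, and 2.84 without replicate 1. Genes with a pooled peak stayed at 8 to 10, genes with a peak in both replicates at 5 to 8, and such peaks (12) were 9 to 17. The shares of sequence words gave 10 further values, of which 4 left the exact interval of the share given. They were higher with 100 bp and lower with 25 bp to each side, as longer windows hold more letters. TAATTG fell below the share of nuclear pooled summits at 100 bp (13.2% against 17.1%). GAGAGA fell below it at 25 bp (1.47% against 3.34%) and at 100 bp (8.82% against 12.6%). TAATTA and TAAT stayed above that share at each width, and CGCGCA stayed below it. The cause of the other shifts was not tested. No paired analysis was possible because the replicates form 1 group. Peak signals without read counts limit how finely the weaker peaks can be told apart.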
